A study of Macaca mulatta with 449 samples.

Results

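The thalamus was compared with the neocortex of the same animal in 8 rhesus macaques. The members are the 8 samples labelled thalamus (THA), 1 per animal, and the 248 samples of 31 cortical sub-regions, out of 408 samples in the count table of a whole-brain atlas. The 31 cortical samples of an animal were added into 1 neocortex profile, so that 8 thalamus samples were set against 8 profiles. The cortical sub-regions were the gyri of the frontal, parietal, temporal and occipital lobes, with the insula, the hippocampal gyrus and the cingular gyri among them. The animals were healthy, from 1 source and kept in outdoor groups, and no genetic change or treatment is given for either tissue. Rhesus 4 (3.2 years), 8 (3.8 years), 7 (4 years) and 10 (5 years) form the young stage, and Rhesus 11 (9.8 years) and 2, 3 and 6 (10 years each) the mid-aged stage. Rhesus 2, 3, 7 and 8 are males and Rhesus 4, 6, 10 and 11 females. RNA was sequenced after removal of ribosomal RNA, from small blocks of tissue that an anatomist removed. No source used here says which thalamic nuclei a block held, and a block mixes neurons, glia and vessels.

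The thalamus is the relay of the diencephalon. Its projection neurons are glutamatergic, send axons to the middle layers of the cortex, and fire either single spikes or bursts that depend on T-type calcium channels. In most relay nuclei they load vesicles with the transporter VGLUT2 (*SLC17A6*), while cortical pyramidal neurons use VGLUT1 (*SLC17A7*). Thalamus and cortex also come from different parts of the embryonic forebrain, the diencephalon and the telencephalon, which are patterned by different transcription factors, and cortical GABA interneurons migrate from telencephalic eminences that do not supply most of the thalamus. A thalamic block also holds myelinated fibre tracts.

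Library totals were 9408110 to 14435755 counts in the thalamus, 7784678 to 31083490 in the cortical samples and 297336760 to 428597814 in the cortical sums. Levels are given as CPM, read counts relative to a library size scaled by the TMM method, and triples of CPM are the lowest, the median and the highest of 8 values. CPM do not correct for gene length, so levels were compared between samples and not between genes. Differences are log2 fold changes (log2FC, thalamus minus neocortex) ± SE from edgeR's quasi-likelihood test with the animal as a block, n = 8 pairs. A gene was called higher or lower at FDR < 0.05 with a fold above 2, and "did not overlap" means that all 8 thalamus samples lay on one side of all 8 profiles.

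*TCF7L2*, the Wnt pathway transcription factor used as the marker of the thalamus, checked the labels. It lay at 233, 279 and 352 CPM in the thalamus and at 7.09, 9.16 and 9.82 CPM in the neocortex profiles (log2FC 5.00 ± 0.09, FDR 2.41e-12), and the groups did not overlap. Each thalamus sample also exceeded each of the 31 cortical samples of its own animal, so no thalamus library went against its label. The count table holds no midbrain samples. Across its 21 region groups the thalamus had the highest mean of *TCF7L2*, 279 ± 37.9 CPM (SD, n = 8), and the pituitary came next at 20.2 ± 8.01 CPM.

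The thalamus libraries of Rhesus 4, 8 and 10, all young, stood apart from the other 5. Of 10024 genes that averaged 10 CPM or more over the thalamus samples, 629 in Rhesus 8, 326 in Rhesus 10 and 186 in Rhesus 4 lay more than 2-fold from the median of the other 7 thalamus samples. The other 5 libraries had 54 to 101 such genes. In the same 3 animals most of these genes were below the median: 559 in Rhesus 8, 303 in Rhesus 10 and 163 in Rhesus 4. The neocortex profile of Rhesus 4 stood apart as well, with 146 genes against 26 to 51 in the other profiles. Without these 3 animals no list described here gained or lost more than 1 call in either direction. The spread between animals was wider in the thalamus, with a median SD of 0.236 on the log2 scale against 0.154 in the neocortex profiles, each of which averages over 31 samples.

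**Figure D1:**
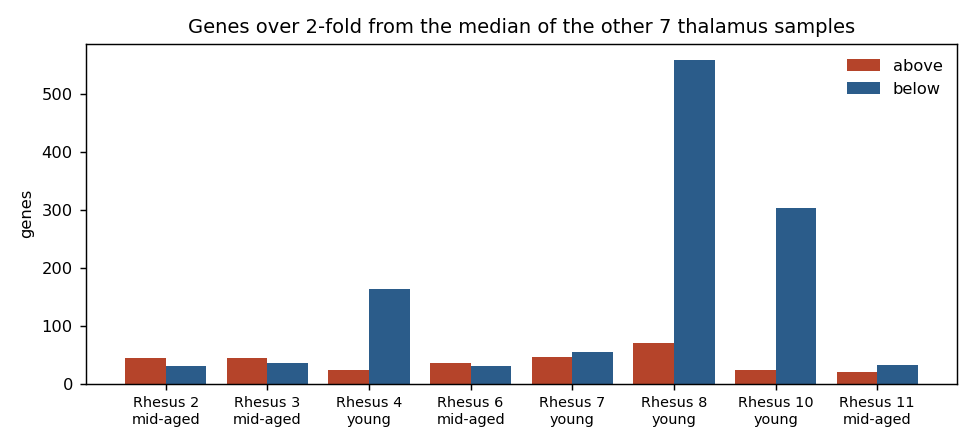
Bars show, for each thalamus sample (x axis, with the animal's age stage), the number of genes (y axis) more than 2-fold above (red) or below (blue) the median of the other 7 thalamus samples, among 10024 genes. Rhesus 8, 10 and 4 carry the tallest blue bars, with 559, 303 and 163 genes.

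Of 15427 genes tested, 1280 (8.30%) were called higher and 1516 (9.83%) lower in the thalamus. Without Rhesus 4, 8 and 10 the counts were 1314 and 1509 of 15490 genes. The log2FC exceeded 3 for 140 of the genes called higher, and it fell below -3 for 316 of those called lower. The median over all genes tested was -0.06. In 1677 genes (10.9%) all thalamus samples lay above all profiles and in 2386 (15.5%) all lay below. Measured against the 31 cortical samples of its own animal, the thalamus was above every one in all 8 animals for 1049 genes (6.80%) and below every one for 849 (5.50%). In bulk tissue a lower level can come from fewer cells of a type or from less RNA per cell, and these cannot be told apart.

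**Figure D2:**
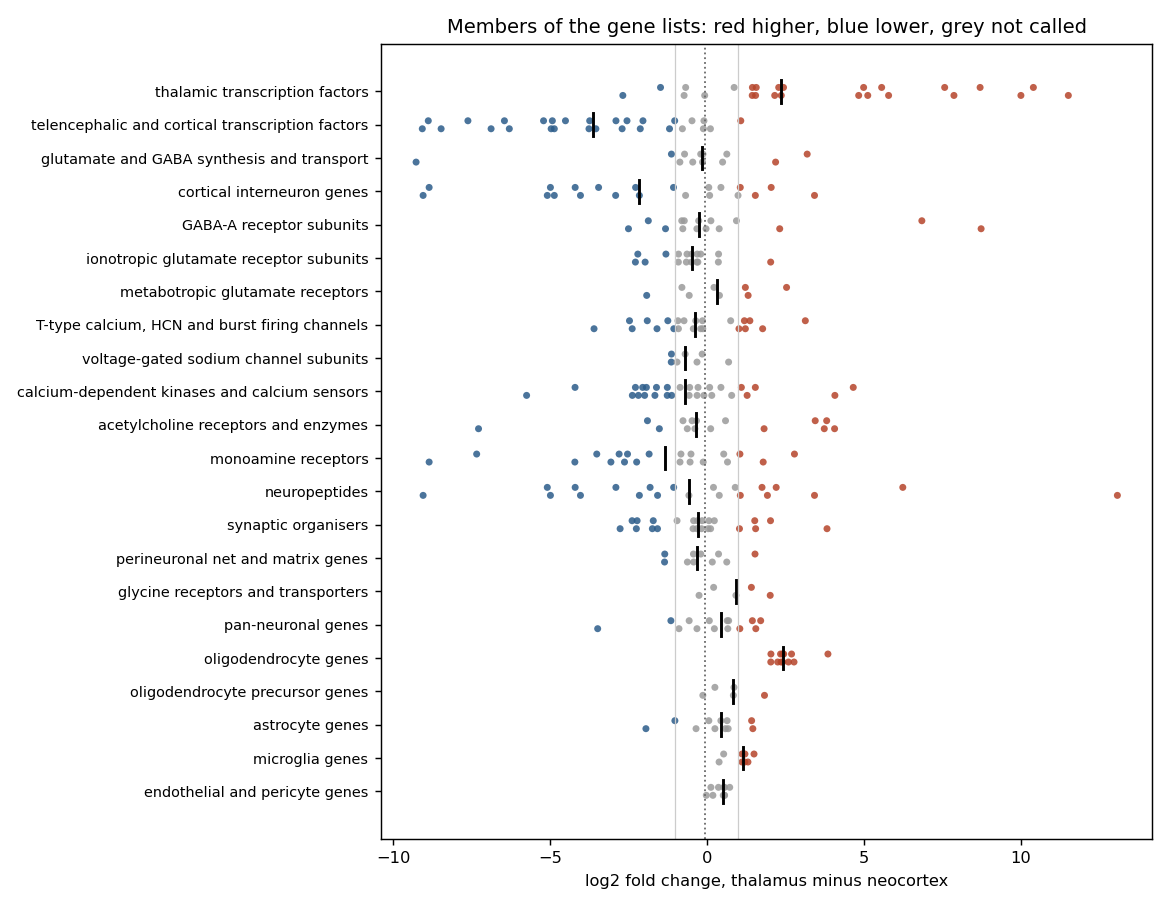
Each point is the log2FC of 1 list member (x axis, thalamus minus neocortex) in 22 gene lists (rows), red where called higher, blue where called lower and grey where not called. Black ticks are list medians, the dotted line the median of all genes tested (-0.06) and the grey lines a 2-fold difference. The medians of the telencephalic factors (-3.63) and of the oligodendrocyte genes (2.42) lie farthest from the dotted line.

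Transcription factors of the thalamus and its surroundings were mostly called higher, in a list chosen with earlier results of these data known. Over all genes tested the share called higher was 8.30%. The list has 29 genes, of which 27 had an identifier and 25 were tested. Of these, 19 were called higher, 2 lower and 4 not called, with a median log2FC of 2.37. *GBX2*, a homeobox factor needed for thalamic nuclei to form, lay at 5.54, 11.4 and 16.6 CPM in the thalamus and at 0.003, 0.00659 and 0.025 CPM in the neocortex (log2FC 10.01 ± 0.25, FDR 1.76e-11). *LHX9*, a LIM homeobox factor of early thalamic neurons, lay at 24.3, 49.8 and 59.3 against 0.365, 0.948 and 1.17 CPM (log2FC 5.79 ± 0.24, FDR 2.59e-09). For both genes each thalamus sample exceeded all cortical samples of its own animal, and the lowest *LHX9* value was that of Rhesus 8. *OTX2*, a homeobox factor of the forebrain and midbrain that is also made by choroid plexus, lay at 48.3, 60.9 and 117 CPM against at most 0.0884 CPM in any profile (log2FC 11.52 ± 0.40, FDR 6.31e-10). The zinc finger factors *ZIC4* (131, 152 and 178 against 2.73, 3.27 and 3.95 CPM, log2FC 5.57 ± 0.08, FDR 5.66e-13) and *ZIC1* (129.5, 179 and 254 against 4.11, 5.39 and 6.39 CPM, log2FC 5.13 ± 0.11, FDR 9.39e-12) were higher without overlap. So were *ZIC2* (log2FC 2.44 ± 0.10), *PROX1* (2.29 ± 0.19), *PBX3* (1.45 ± 0.08) and *NR2F2* (1.45 ± 0.11). *FOXP2*, a forkhead factor of the thalamus and of deep cortical layers, was higher with overlap (1.57 ± 0.17).

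The 4 iroquois homeobox genes of the list, which pattern the diencephalon along its axis, were all called higher. *IRX5* was the one with the largest log2FC, at 3.3, 4.46 and 6.63 against 0, 0.00139 and 0.00685 CPM (log2FC 10.40 ± 0.32, FDR 8.91e-11). *IRX2*, *IRX1* and *IRX3* had log2FC of 8.71, 7.87 and 4.84. All 4 stayed below 11 CPM in the thalamus, and in each the groups did not overlap. *LEF1*, which acts in the same pathway as *TCF7L2*, lay at 41, 51 and 92.5 against 9.66, 10.9 and 12.8 CPM (log2FC 2.37 ± 0.14, FDR 5.2e-08), without overlap. *RORA*, a nuclear receptor of thalamocortical neurons, lay at 5.57, 30.1 and 41.3 against 2.17, 4.54 and 8.44 CPM (log2FC 2.16 ± 0.31, FDR 7.22e-05). Its groups overlapped: Rhesus 4, 8 and 10 had 8.03, 5.57 and 7.31 CPM in the thalamus and the other 5 animals 25.5 to 41.3 CPM. Without those 3 animals the log2FC of *RORA* was 2.71. It varied between the neocortex profiles as well, with an SD of 0.633 on the log2 scale against 1.19 in the thalamus. The median SD of the profiles was 0.154.

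Both members called lower are factors that the cortex uses as well. *LHX2*, a LIM homeobox factor that sets cortical identity in the embryo, lay at 5.34, 8.84 and 12.6 CPM in the thalamus and 43.2, 53.7 and 62.4 CPM in the neocortex (log2FC -2.68 ± 0.16, FDR 4.52e-08). *MEIS2* lay at 17.5, 28.2 and 42.5 against 64, 76.2 and 85.9 CPM (log2FC -1.48 ± 0.12, FDR 8.35e-07). In neither gene did the groups overlap. *PAX6* was lower in every animal, at 26.9, 49.2 and 58.4 against 66, 74 and 87.2 CPM, but its log2FC of -0.67 ± 0.09 was under the fold threshold.

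Among genes with a symbol that averaged 5 CPM or more in the tissue where they were higher, the 15 with the largest log2FC above 0 included 8 that belong to none of the lists. *SHOX2*, a homeobox factor known from the heart's pacemaker and from thalamic relay neurons, had the largest difference, with 199, 296 and 371 CPM in the thalamus and 0.00685, 0.0178 and 0.036 CPM in the neocortex (log2FC 13.66 ± 0.18, FDR 5.66e-13). Each thalamus sample exceeded all cortical samples of its animal. *CASQ2*, calsequestrin, which binds calcium inside the reticulum, lay at 70.1, 102 and 133 against 0.0599, 0.191 and 0.294 CPM (log2FC 9.11 ± 0.27, FDR 1.64e-10). *ATP2A3*, a pump that fills the same store, lay at 70.7, 142 and 193 against 2.08, 2.91 and 3.28 CPM (log2FC 5.58 ± 0.26, FDR 6.72e-09). *SLITRK6*, a membrane protein of neurite growth and synapse formation, lay at 32.1, 70.9 and 109 against 0.0614, 0.239 and 0.572 CPM (log2FC 8.15 ± 0.42, FDR 1.54e-08). None of these genes overlapped between the groups.

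Some of the genes with large differences are named for other tissues. *IL12B*, the shared subunit of 2 immune cytokines, lay at 7.03, 14.8 and 27.3 CPM in the thalamus and 0.0899, 0.111 and 0.25 CPM in the neocortex (log2FC 6.87 ± 0.32, FDR 7.65e-09). *NDC80*, part of the kinetochore of dividing cells, lay at 14.9, 25.5 and 37.4 against 0.205, 0.29 and 0.625 CPM (log2FC 6.21 ± 0.26, FDR 2.78e-09). *MS4A8*, a 4-pass membrane protein, lay at 28.5, 61 and 76.6 against 0.234, 0.475 and 1.01 CPM (log2FC 6.86 ± 0.24, FDR 7.26e-10). In all 3 genes each thalamus sample exceeded every cortical sample of its animal. *XPNPEP2*, a membrane aminopeptidase, had the smallest log2FC of the 15, at 4.94, 6.53 and 13.8 against 0.122, 0.169 and 0.243 CPM (log2FC 5.39 ± 0.23, FDR 1.37e-09).

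**Figure D3:**
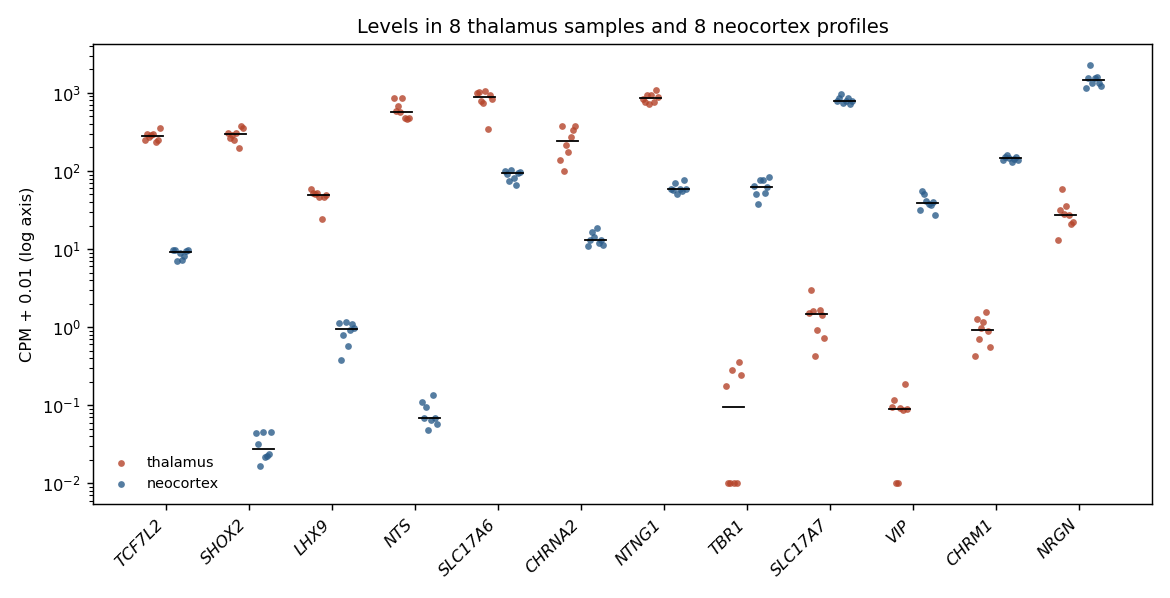
Points are the levels of 12 genes (x axis) in 8 thalamus samples (red) and 8 neocortex profiles (blue), as CPM + 0.01 on a log axis, so that points at 0.01 had no count, and bars are medians. Red points lie above blue ones from *TCF7L2* to *NTNG1* and below them from *TBR1* to *NRGN*, with no overlap in any of the 12 genes.

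Transcription factors of the telencephalon and of cortical layers went the other way. Of 28 tested, 22 were called lower, 1 higher and 5 not called, with a median log2FC of -3.63. Without Rhesus 4, 8 and 10, 21 were called lower, because *CUX2* fell just short of a 2-fold difference (log2FC -0.99). *NR4A2*, another member called lower, lost its call with DESeq2, with the 2 other scalings and with the cortical mean. *TBR1*, a T-box factor of deep-layer neurons, lay at 0, 0.0839 and 0.352 CPM in the thalamus and 37.5, 63.1 and 84.2 CPM in the neocortex (log2FC -8.88 ± 0.24, FDR 4.42e-11). *NEUROD2* (0, 0.042 and 0.402 against 33.5, 43.2 and 46.4 CPM, log2FC -8.47 ± 0.30, FDR 7.25e-10) and *NEUROD6* (0, 0.166 and 1.55 against 50.5, 64.3 and 76.7 CPM, log2FC -7.61 ± 0.33, FDR 4.13e-09), basic helix-loop-helix factors of cortical excitatory neurons, were lower without overlap as well.

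Markers of upper, middle and deep cortical layers were among the genes called lower. *FEZF2*, a factor of deep-layer neurons that project below the cortex, lay at 0, 0.0803 and 0.32 against 10.2, 11.5 and 16.5 CPM (log2FC -6.87 ± 0.29, FDR 1.25e-09). *RORB*, a layer IV factor, was lower by less, at 2.73, 7.95 and 9.58 against 20.8, 38.3 and 56 CPM (log2FC -2.54 ± 0.19, FDR 4.33e-07). Both were without overlap. *MEF2C*, an activity-regulated factor, lay at 37.6, 104 and 134 against 1122, 1302 and 1509.7 CPM (log2FC -3.76 ± 0.16, FDR 3.66e-09). The member called higher was *ETV1*, an ETS factor used as a layer V marker, at 157, 201 and 236 CPM in the thalamus and 83.6, 98 and 107 CPM in the neocortex (log2FC 1.08 ± 0.07, FDR 9.17e-08), again without overlap. *CUX1*, *TLE4* and *ZFPM2*, which serve as markers of upper and deep layers, had log2FC of -0.09, 0.11 and -0.11 and overlapped.

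The 15 genes with the largest differences below 0 were chosen in the same way, and several of them are described here. *TESPA1*, an adaptor first described in thymocytes, lay at 0, 0.123 and 0.533 CPM in the thalamus and 151, 198 and 248 CPM in the neocortex (log2FC -10.48 ± 0.20, FDR 3.67e-12). *GDA*, guanine deaminase, which also binds the scaffold of excitatory synapses, lay at 0, 0.322 and 1.28 against 172, 205 and 247 CPM (log2FC -9.16 ± 0.26, FDR 1.18e-10). *NPTX1*, a pentraxin that clusters AMPA receptors, lay at 1.1, 2.1 and 6.07 against 452, 508 and 575 CPM (log2FC -7.72 ± 0.24, FDR 2.28e-10). In these 3 genes the highest thalamus sample was far below the lowest profile, and Rhesus 3 held the highest thalamus value of *TESPA1* and *NPTX1*. *KCNJ4*, an inward rectifier potassium channel, lay at 0, 0.234 and 0.426 against 60.7, 71.7 and 87 CPM (log2FC -8.56 ± 0.24, FDR 9.69e-11). *MEPE*, a phosphoglycoprotein known from bone matrix, lay at 0, 0.086 and 0.48 against 42.6, 64.1 and 101 CPM (log2FC -9.04 ± 0.27, FDR 1.96e-10). *SLC26A4*, the anion exchanger pendrin, lay at 0, 0.0343 and 0.301 against 15.9, 17.3 and 20.3 CPM (log2FC -7.69 ± 0.29, FDR 6.11e-10). Groups did not overlap in any of these.

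Some genes had almost no counts in the thalamus, so their folds are ratios of summed counts. *MCHR2*, a receptor of melanin-concentrating hormone, had 0 counts in all 8 thalamus samples and 13429 in the profiles, which is at least 160-fold lower in the thalamus with a floor of 3 counts over the group. *FFAR4*, a fatty acid receptor, had 1 count in the thalamus and 23687 in the profiles, a ratio of 844 with a 95% counting interval of 152 to 33340. *HTR3A*, the serotonin receptor channel of cortical interneurons, had 1 count against 14275, a ratio of 509 (91.3 to 20090). *HTR4*, another serotonin receptor, had 3 counts against 13924, a ratio of 165 (56.6 to 802). These intervals cover counting error only.

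Among genes of transmitter synthesis and transport, the vesicular glutamate transporters went in opposite directions. Of 12 tested, 2 were called higher, 2 lower and 8 not called, with a median log2FC of -0.17. *SLC17A6* (VGLUT2) lay at 343, 889 and 1049 CPM in the thalamus and 65.9, 93.5 and 104 CPM in the neocortex (log2FC 3.20 ± 0.13, FDR 2.62e-09). Its lowest thalamus value was that of Rhesus 8, the others lay between 751 and 1049 CPM, and the groups did not overlap. *SLC17A7* (VGLUT1) lay at 0.412, 1.46 and 2.98 against 713, 795 and 960.1 CPM (log2FC -9.26 ± 0.20, FDR 1.55e-11), so every thalamus sample was below every cortical sample of its animal. Rhesus 3 held its highest thalamus value, and without that animal the log2FC was -9.47.

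On the GABA side the differences were smaller. *GAD1*, which makes GABA, lay at 127, 212 and 362 CPM in the thalamus and 435, 457 and 499 CPM in the neocortex (log2FC -1.13 ± 0.13, FDR 1.43e-05), without overlap. *GAD2*, the second enzyme, lay at 80, 152 and 332 against 281, 313 and 333 CPM (log2FC -0.86 ± 0.18, FDR 0.0015) and was not called. *SLC32A1*, the vesicular GABA transporter, lay at 19.6, 42.6 and 73 against 59.6, 64.6 and 80.7 CPM (log2FC -0.71 ± 0.16, FDR 0.00234) and was not called. Both overlapped because 1 or more thalamus samples reached cortical levels. *SLC6A11*, the GABA transporter GAT-3 of astrocytes, was higher without overlap, at 76, 119.9 and 205 against 22.3, 30.1 and 36.3 CPM (log2FC 2.19 ± 0.09, FDR 1.37e-09).

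Genes that mark classes of cortical interneurons were split. Of 21 tested, 12 were called lower, 4 higher and 5 not called, with a median log2FC of -2.15. Without Rhesus 4, 8 and 10, 11 were called lower and 5 higher. *VIP* (0, 0.0803 and 0.176 against 27.1, 38.8 and 55.3 CPM, log2FC -9.04 ± 0.19, FDR 5.49e-12), the peptide of interneurons that inhibit other interneurons, and *SST* (2.21, 6.55 and 11.4 against 77.4, 106 and 169 CPM, log2FC -4.03 ± 0.26, FDR 1.04e-07), the peptide of interneurons that contact dendrites, were lower without overlap. *LHX6*, the factor of interneurons from the medial eminence, lay at 0.352, 0.976 and 2.01 against 25.4, 32 and 35.9 CPM (log2FC -4.86 ± 0.18, FDR 4.25e-10), and *LAMP5* lay at 3.12, 4.32 and 15.3 against 26.2, 39 and 49 CPM (log2FC -2.91 ± 0.21, FDR 3e-07). Each of these 4 was below all cortical samples of its animal in all 8 animals. *PVALB*, the calcium buffer of fast-spiking interneurons that is also made by neurons of the thalamic reticular nucleus, overlapped. It lay at 25.8, 53.4 and 141 against 42.2, 51 and 63.8 CPM (log2FC 0.09 ± 0.26, FDR 0.774), and the sign changed to -0.11 without Rhesus 10, whose thalamus had the highest value. *CRH*, *CHODL*, *CALB2* and *RELN* were the 4 called higher. *RELN* and *CHODL* were higher still in the corpus callosum, a white matter tract. Their medians were 1324 and 39.9 CPM there and 245 and 8.01 CPM in the thalamus (log2FC, thalamus minus corpus callosum, -2.40 and -2.26). *CRH* and *CALB2* had medians of 1.46 and 0.498 CPM in the corpus callosum. Which cells carried these transcripts was not tested. *RELN*, the matrix protein reelin, fell to a log2FC of 0.96 without Rhesus 8 and then missed the fold threshold.

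Among neuropeptides, 10 of 21 tested were called lower, 7 higher and 4 not called, with a median log2FC of -0.57. The calls of *NMU*, lost with DESeq2, and of *NPPC*, lost without the animal block, also depended on single animals. *NTS*, neurotensin, had the largest difference of any listed peptide, with 468, 575 and 863 CPM in the thalamus and 0.0381, 0.0581 and 0.126 CPM in the neocortex (log2FC 13.08 ± 0.21, FDR 2.62e-12). *TRH*, thyrotropin-releasing hormone, lay at 41.8, 85.8 and 145 against 0.456, 0.852 and 5.32 CPM (log2FC 6.24 ± 0.32, FDR 1.38e-08), and *CRH*, corticotropin-releasing hormone, lay at 301, 325 and 450.4 against 23.7, 32.5 and 39.5 CPM (log2FC 3.43 ± 0.11, FDR 1.21e-10). For these 3 peptides each thalamus sample exceeded each cortical sample of its animal. *PTHLH*, a relative of parathyroid hormone, was higher without overlap as well, at 23.2, 35.4 and 70 against 6.15, 7.99 and 10.4 CPM (log2FC 2.21 ± 0.13, FDR 3.51e-08).

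Peptides of cortical interneurons were among those called lower. *CCK*, cholecystokinin, lay at 2.12, 4.2 and 22 CPM in the thalamus and 140, 186 and 258 CPM in the neocortex (log2FC -4.98 ± 0.31, FDR 7.14e-08), and *NPY* lay at 0.236, 0.516 and 1.1 against 11, 18.7 and 27.2 CPM (log2FC -5.08 ± 0.12, FDR 1.55e-11). *PDYN*, the precursor of dynorphin, lay at 2.81, 7.07 and 21.1 against 52.5, 61 and 76.2 CPM (log2FC -2.90 ± 0.24, FDR 8.66e-07). These 3 did not overlap. *TAC1*, the precursor of substance P, varied most between thalamus samples among listed genes that averaged 10 CPM or more, from 0.492 CPM in Rhesus 7 to 35.3 CPM in Rhesus 6, and overlapped with the profiles (log2FC -2.15 ± 0.57, FDR 0.00568). Without Rhesus 4, 8 and 10 its FDR was 0.173. *CARTPT*, the CART precursor, was called higher although it overlapped, with 3.44 CPM in Rhesus 7 and 5.02 in Rhesus 4 against 23.7 to 57.9 CPM in the other 6 thalamus samples.

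GABA-A receptor subunits, which form the fast inhibitory channels, differed in both directions. Of 15 tested, 3 were called higher, 3 lower and 9 not called, with a median log2FC of -0.26. The rho subunits *GABRR1* (1.31, 1.85 and 2.47 against 0, 0.00329 and 0.00899 CPM, log2FC 8.74 ± 0.34, FDR 7.14e-10) and *GABRR2* (0.617, 1.78 and 2.87 against 0.00586, 0.0114 and 0.027 CPM, log2FC 6.85 ± 0.37, FDR 9.96e-09), which form receptors known from the retina, were higher at low CPM. *GABRE*, the epsilon subunit, lay at 11.4, 18.2 and 24.2 against 1.72, 3.41 and 5.23 CPM (log2FC 2.32 ± 0.09, FDR 6.16e-10). It was higher still in the hypothalamus (median 71.4 CPM) and in the corpus callosum (median 119 CPM). *GABRD*, the delta subunit of tonic, extrasynaptic receptors, was lower at 13.7, 27 and 33.1 against 78.6, 87.6 and 104 CPM (log2FC -1.86 ± 0.11, FDR 1.96e-08), and so was *GABRG3* at 0.176, 0.561 and 1.72 against 2.88, 3.77 and 5.67 CPM (log2FC -2.50 ± 0.22, FDR 7.48e-07). In all 5 the groups did not overlap. *GABRB2*, *GABRA4* and *GABRA3*, with log2FC of -0.26, -0.32 and 0.39, overlapped. The subunits summed to 713 to 1286 CPM in the thalamus and 854 to 1289 CPM in the profiles.

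Ionotropic glutamate receptor subunits leaned lower, with 4 of 17 called lower, 1 higher and 12 not called (median log2FC -0.49). The AMPA receptor subunits *GRIA2* (149, 177 and 232 against 539, 755 and 804 CPM, log2FC -1.97 ± 0.09, FDR 1.61e-09) and *GRIA3* (15.3, 24.8 and 32 against 71.6, 125 and 145 CPM, log2FC -2.28 ± 0.12, FDR 1.12e-08) were lower without overlap, and *GRIA1* was lower by a log2FC of -1.30 ± 0.08. *GRIA4* overlapped, at 127, 176 and 192 against 119.6, 129 and 142 CPM, and was not called (log2FC 0.37 ± 0.06, FDR 0.000265). The NMDA receptor subunits moved in both directions. *GRIN2A*, a main subunit of the adult cortex, lay at 6.25, 11.4 and 17 against 32, 53.2 and 67.6 CPM (log2FC -2.20 ± 0.20, FDR 1.96e-06), while *GRIN2D*, which gives slow receptors, lay at 17.8, 20.9 and 31.5 against 4.73, 5.59 and 6.62 CPM (log2FC 2.03 ± 0.08, FDR 4.85e-10). Neither overlapped. Among the 8 metabotropic receptors, 3 were called higher, 1 lower and 4 not called (median 0.32). *GRM4*, a presynaptic receptor, lay at 68.3, 83.9 and 95 against 11.2, 13.8 and 16.9 CPM (log2FC 2.54 ± 0.07, FDR 4.42e-11), without overlap. *GRM8* was the member called lower, at 3.19, 6.93 and 10.7 against 19.9, 23.3 and 28.4 CPM (log2FC -1.92 ± 0.21, FDR 9.39e-06).

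Channels that bear on burst firing were also split between members of 1 family. Of 22 tested, 6 were called higher, 7 lower and 9 not called, with a median log2FC of -0.39. The 3 T-type calcium channels went in opposite directions. *CACNA1G* (Cav3.1), the channel of relay neurons, lay at 283, 344 and 438 CPM in the thalamus and 87, 101 and 115 CPM in the neocortex (log2FC 1.78 ± 0.08, FDR 3.32e-09). *CACNA1H* (Cav3.2) lay at 5.62, 8.24 and 11.3 against 34.4, 43 and 53.3 CPM (log2FC -2.38 ± 0.10, FDR 1.2e-09), and *CACNA1I* (Cav3.3) at 4.32, 10.4 and 19.2 against 26.6, 36.3 and 50 CPM (log2FC -1.90 ± 0.21, FDR 9.38e-06). None of the 3 overlapped with the profiles, which average over the cortical sub-regions. *CACNA1G* was above and *CACNA1I* below every cortical sample of the same animal. For *CACNA1H*, 24 of 248 cortical samples lay below the thalamus sample of their own animal, and cortical sub-region means ran from 4.86 to 92.5 CPM. *HCN4*, a slow pacemaker channel, lay at 17, 30.4 and 50.4 against 2.31, 3.31 and 5.05 CPM (log2FC 3.14 ± 0.16, FDR 1.33e-08). *KCNC2* (Kv3.2), which shortens spikes, lay at 686, 1202 and 1287 against 390, 419.6 and 459 CPM (log2FC 1.37 ± 0.09, FDR 4.04e-08). Both were above all cortical samples of each animal. The small-conductance calcium-activated channels differed among themselves: *KCNN1* was lower at 2.66, 4.27 and 7.13 against 45.9, 52 and 65.4 CPM (log2FC -3.59 ± 0.12, FDR 2.4e-10), *KCNN2* was lower (log2FC -1.59 ± 0.14) and *KCNN3* was higher (1.23 ± 0.10), each without overlap. *HCN2* was called higher with a log2FC of 1.02, which fell to 0.97 without Rhesus 10 and to just below 1 without Rhesus 3.

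Voltage-gated sodium channels, which carry spikes in all neurons, had 2 of 7 members called lower and 5 not called (median log2FC -0.69), and 1 was called lower without Rhesus 4, 8 and 10. *SCN2A* lay at 195, 334 and 444 against 643, 701 and 864 CPM (log2FC -1.13 ± 0.12, FDR 6.13e-06), and its log2FC was -0.96 without Rhesus 4, 8 and 10. *SCN1A*, at 207, 357 and 483 against 302, 412 and 462 CPM, overlapped (log2FC -0.15 ± 0.09, FDR 0.182). *SCN8A* was low in the same 3 thalamus libraries as *RORA*, at 31.3 to 40.4 CPM in Rhesus 4, 8 and 10 against 72.3 to 113 CPM in the others, and it was not called. It varied between the neocortex profiles as well, with an SD of 0.651 on the log2 scale against 0.768 in the thalamus.

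Calcium-dependent kinases and calcium sensors leaned lower, with 13 of 28 called lower, 5 higher and 10 not called (median log2FC -0.71). *NRGN*, neurogranin, which holds calmodulin at cortical synapses, lay at 13, 27.7 and 59.4 CPM in the thalamus and 1166, 1444 and 2278 CPM in the neocortex (log2FC -5.74 ± 0.13, FDR 1.85e-11). *PCP4*, a calmodulin-binding protein of the same IQ-motif family, went the other way, at 803, 1007 and 1504 against 25.8, 43.9 and 50.2 CPM (log2FC 4.67 ± 0.11, FDR 1.37e-11). The groups did not overlap in either gene. The subunits of the calcium/calmodulin kinase II differed: *CAMK2A* was lower at 549, 586 and 625 against 2039, 2280.1 and 2676 CPM (log2FC -1.98 ± 0.05, FDR 3.56e-11), *CAMK2G* was lower (log2FC -1.60 ± 0.05), *CAMK2B* was not called (-0.28 ± 0.05) and *CAMK2D* was higher at 287, 479 and 605 against 179.8, 189.9 and 211 CPM (log2FC 1.28 ± 0.10, FDR 5.54e-07). Protein kinase C genes also differed. *PRKCH* lay at 99.4, 131 and 141 against 6.12, 6.92 and 9.09 CPM (log2FC 4.08 ± 0.10, FDR 1.39e-11), while *PRKCB* was lower (-1.26 ± 0.07) without overlap and *PRKCD*, a marker of relay neurons in rodents, was not called at 3.46, 5.71 and 7.53 against 8.02, 9.99 and 14.3 CPM (log2FC -0.85 ± 0.11, FDR 2.09e-05). *CAMK1G* was lower, at 2.13, 5.97 and 10.5 against 93.1, 105 and 139 CPM (log2FC -4.20 ± 0.21, FDR 1.44e-08). The kinase kinases *CAMKK1* and *CAMKK2*, which switch on other kinases of this group, had log2FC of -2.04 and -2.28, without overlap.

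The thalamus receives cholinergic fibres from the brainstem, and its acetylcholine receptor genes differed in both directions. Of 15 genes tested, 5 were called higher, 3 lower and 7 not called, with a median log2FC of -0.33. The nicotinic subunits *CHRNA2* (99.1, 241 and 379 against 10.9, 13 and 18.8 CPM, log2FC 4.07 ± 0.28, FDR 1.88e-07), *CHRNA4* (73.6, 110.4 and 153 against 4.53, 8.28 and 11.8 CPM, log2FC 3.82 ± 0.24, FDR 8.3e-08), *CHRNA3* (17.6, 27.9 and 41.4 against 1.41, 1.89 and 3.3 CPM, log2FC 3.74 ± 0.13, FDR 2.28e-10) and *CHRNA5* (log2FC 3.45 ± 0.13) were higher. In all 4 the lowest thalamus sample was above the highest profile and above all cortical samples of its animal. Their partner *CHRNB2* was above its profile in every animal but under the fold threshold, at 173, 184 and 221 against 111, 122 and 141 CPM (log2FC 0.60 ± 0.05, FDR 8.76e-07). *CHRM1*, the main muscarinic receptor of cortical pyramidal neurons, was lower at 0.42, 0.921 and 1.55 against 130.3, 145 and 161 CPM (log2FC -7.27 ± 0.15, FDR 5.49e-12), without overlap, and *CHRM3* was not called (log2FC -0.33 ± 0.06). *CHAT* and *SLC18A3*, which mark cholinergic cell bodies, had at most 11 and 15 counts in a thalamus sample and were not tested. *CHRNA3* also belongs to the habenula list, which is described below. *CHRM4*, a muscarinic autoreceptor, was lower as well (log2FC -1.89 ± 0.22), and so was the nicotinic subunit *CHRNA10* (-1.51 ± 0.35), which overlapped.

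Monoamine receptors leaned lower, with 10 of 20 called lower, 3 higher and 7 not called (median log2FC -1.35). *HTR2A*, a serotonin receptor of pyramidal neurons, lay at 7.11, 18.2 and 40.1 CPM in the thalamus and 98.5, 115 and 137 CPM in the neocortex (log2FC -2.53 ± 0.21, FDR 9.83e-07). *HTR5A* lay at 0.617, 0.913 and 1.17 against 13.3, 16.4 and 21.3 CPM (log2FC -4.21 ± 0.11, FDR 2.94e-11) and *HTR1E* at 0.176, 0.471 and 1.93 against 6.26, 6.93 and 7.86 CPM (log2FC -3.51 ± 0.31, FDR 1.23e-06). These 3 did not overlap. *HTR1B*, a serotonin receptor found on axon terminals, was higher at 10.7, 15.2 and 26.2 against 3.44, 4.59 and 6.53 CPM (log2FC 1.80 ± 0.16, FDR 8.21e-07), and *DRD4*, a dopamine receptor, was higher at low CPM, 0.619, 1.2 and 1.58 against 0.0758, 0.146 and 0.442 (log2FC 2.79 ± 0.27, FDR 2.19e-06). Both were without overlap. *HTR1A* (log2FC -2.80 ± 0.28), *DRD5* (-3.06 ± 0.36) and the beta-adrenergic receptor *ADRB1* (-2.62 ± 0.19) were lower, again without overlap. *DRD1* was not called, at 17.5, 31.7 and 55.8 against 50.5, 59.3 and 67.2 CPM (log2FC -0.82 ± 0.16, FDR 0.000654).

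Synaptic organisers had 5 of 23 members called higher, 7 lower and 11 not called, with a median log2FC of -0.30. The paired adhesion proteins netrin-G1 and netrin-G2, which sit on axons and mark different excitatory pathways, went in opposite directions. *NTNG1* lay at 710.3, 861 and 1079 against 50.3, 58.5 and 76 CPM (log2FC 3.83 ± 0.05, FDR 5.66e-13), and *NTNG2* lay at 2.47, 3.67 and 4.48 against 20.1, 23.7 and 31 CPM (log2FC -2.76 ± 0.09, FDR 1.75e-10). Neither overlapped. The partners of the LRRC4 family that bind netrin-Gs, *LRRC4* and *LRRC4C*, were both lower (log2FC -2.22 ± 0.07 and -1.71 ± 0.06). *LRRTM1*, a postsynaptic partner of neurexins, was higher at 82.9, 124 and 145 against 35.2, 41.1 and 50 CPM (log2FC 1.55 ± 0.06, FDR 6.17e-10), whereas *LRRTM4* was lower at 5.64, 7.45 and 10.2 against 32, 40.3 and 49.7 CPM (log2FC -2.38 ± 0.10, FDR 1.11e-09). The cerebellins, secreted linkers of neurexins, depended on the animal. In Rhesus 8 the thalamus had 112 CPM of *CBLN1* and 285 CPM of *CBLN2*, against 6.97 to 32.6 and 25.7 to 155 CPM in the other 7, and both genes overlapped with the profiles. Without Rhesus 8 the log2FC were 1.20 for *CBLN1* and -1.87 for *CBLN2*.

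In the matrix list 1 of 10 was called higher, 2 lower and 7 not called. *HAPLN4*, a link protein of nets around axon terminals, was higher at 347, 409 and 488 against 102, 139 and 187 CPM (log2FC 1.54 ± 0.12, FDR 4.59e-07), without overlap, and *ACAN*, aggrecan, the core of perineuronal nets, was lower at 0.533, 1.89 and 2.81 against 3.67, 4.27 and 5.61 CPM (log2FC -1.34 ± 0.22, FDR 0.000161). Among glycine receptors and transporters, 2 of 5 were called higher and 3 not called. *SLC6A9*, the glycine transporter of glia, lay at 72.7, 81.6 and 109 against 19.1, 21.2 and 23.6 CPM (log2FC 2.02 ± 0.08, FDR 6.11e-10), and *GLRA2* at 37.1, 55 and 92.6 against 17.4, 21.8 and 26.8 CPM (log2FC 1.42 ± 0.15, FDR 7.93e-06), both without overlap. In the corpus callosum *SLC6A9* had a median of 348 CPM and *GLRA2* one of 0.661 CPM. *SLC6A5*, which marks glycinergic neurons, had at most 1 count in a thalamus sample.

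The summed level of 14 general neuronal genes was alike in both tissues, 15394 to 17920 CPM in the thalamus and 16123 to 17589 CPM in the profiles. Of these 14 genes, 4 were called higher, 2 lower and 8 not called, with a median log2FC of 0.44. Without Rhesus 4, 8 and 10 the counts were 3 higher and 1 lower. *NEFH*, the heavy neurofilament of large axons, lay at 444, 479 and 595 against 114, 154 and 189 CPM (log2FC 1.72 ± 0.11, FDR 7.85e-08), and *TUBB3* and *GAP43*, of tubulin and growth cones, had log2FC of 1.56 ± 0.07 and 1.45 ± 0.06. These 3 were higher without overlap. *NEFM* was called higher as well (log2FC 1.05), but it was 0.98 without Rhesus 10. *RBFOX3*, which encodes the neuronal marker NeuN, was lower at 21.2, 27.4 and 32.9 CPM in the thalamus and 259, 304 and 363 CPM in the neocortex (log2FC -3.48 ± 0.05, FDR 5.66e-13), below all cortical samples of each animal. *SNAP25*, a protein of vesicle fusion, was lower without overlap but under the fold threshold, at 2875, 3288 and 4264 against 5566, 6386 and 6832 CPM (log2FC -0.89 ± 0.07, FDR 3.68e-07).

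All 12 oligodendrocyte genes tested were called higher, with a median log2FC of 2.42, and no group overlapped. *MBP*, myelin basic protein, lay at 6409, 8481 and 16705 CPM in the thalamus and 1504, 1761 and 2022 CPM in the neocortex (log2FC 2.35 ± 0.12, FDR 9.37e-09). *MOG*, a glycoprotein on the outer face of myelin, lay at 229.8, 292 and 419 against 46.6, 56.1 and 66.3 CPM (log2FC 2.42 ± 0.10, FDR 1.42e-09). Rhesus 8 had the highest *MBP* and the highest sum of the list, 25098 CPM, and the other thalamus samples began at 12522 CPM. The profiles lay between 2734 and 3527 CPM and the corpus callosum, a white matter tract, between 89420 and 119521 CPM. Without Rhesus 4, 8 and 10 all 12 were still called higher, and the log2FC of *MBP* was 2.14. *TSPAN2*, a tetraspanin of myelin, had the largest log2FC of the list, at 24.8, 45.8 and 55.5 against 2.57, 2.93 and 3.72 CPM (log2FC 3.86 ± 0.13, FDR 3.08e-10). It differed from the other 11 in being higher in the thalamus than in the corpus callosum as well (median 8.05 CPM, log2FC 2.56). Of 5 precursor genes 1 was called higher: *BCAS1*, which marks oligodendrocytes that are just forming myelin, at 217, 266 and 525 against 65, 81.6 and 105 CPM (log2FC 1.84 ± 0.09, FDR 6.78e-09). *PDGFRA*, the receptor of precursors themselves, overlapped at 112, 122 and 150.3 against 122, 137 and 158 CPM (log2FC -0.13 ± 0.06, FDR 0.0604).

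Microglia genes were higher by less, with 6 of 8 called higher and 2 not called (median log2FC 1.17). *CSF1R*, the receptor that keeps microglia alive, lay at 55.3, 72.4 and 95.5 against 23.3, 32 and 37.1 CPM (log2FC 1.21 ± 0.09, FDR 1.9e-07), and *ITGAM* at 8.33, 10.3 and 19.9 against 3.35, 3.99 and 6.04 CPM (log2FC 1.50 ± 0.10, FDR 4.93e-08), both without overlap. The list summed to 224 to 311 CPM in the thalamus and 122 to 162 CPM in the profiles. Among 11 astrocyte genes, 2 were called higher, 2 lower and 7 not called (median 0.45), and under the other scalings, and without Rhesus 3 or 8, only 1 was called lower, because *SLC1A3* (log2FC -1.02) lay at the threshold (-0.94 without Rhesus 3, -0.96 without Rhesus 8). *GFAP*, the filament of fibrous astrocytes, lay at 452, 1308 and 1633 CPM in the thalamus and 249, 377 and 450.2 CPM in the neocortex (log2FC 1.47 ± 0.16, FDR 8.62e-06), without overlap. *SLC1A2*, the main glutamate transporter of astrocytes, was lower at 36.4, 69.5 and 133 against 129, 278 and 445 CPM (log2FC -1.94 ± 0.17, FDR 1.67e-06) and overlapped. Of 10 endothelial and pericyte genes, 0 were called by edgeR or by DESeq2. An unadjusted edgeR p under 0.05 was found for 8 of them. Over all 15427 genes tested, 10195 had an edgeR FDR under 0.05 at any fold. The median log2FC of the endothelial and pericyte genes was 0.53, and they summed to 375 to 529 CPM in the thalamus and 293 to 431 CPM in the profiles.

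Markers of structures next to the thalamus were read as a check of the blocks. Of the habenula list, 4 genes had an identifier and 1, *CHRNA3*, was tested. *POU4F1*, the defining factor of the habenula, had at most 6 counts in a thalamus sample. *GPR151* had up to 72 counts (7.67 CPM), in Rhesus 3, and *CHRNB4* up to 16 (1.70 CPM). The list summed to 23.6 to 45.9 CPM in the thalamus against 1.54 to 3.41 CPM in the profiles, and *CHRNA3* alone had 17.6 to 41.4 CPM in the thalamus. The 3 hypothalamic peptide genes measured summed to at most 2.41 CPM in the thalamus against 500.2 to 2956 CPM in the hypothalamus. Choroid plexus genes had 3 of 5 called higher and 2 lower, and summed to 60.7 to 127 CPM in the thalamus against 10.3 to 26.5 CPM in the profiles, mainly through *OTX2*. Besides *OTX2*, *FOLR1* (log2FC 2.85 ± 0.36) and *SLC4A5* (1.58 ± 0.17) were higher there and *KL* (-1.54 ± 0.42) was lower. The other gene called lower, *CLIC6*, lost its call without any one of Rhesus 4, 6, 7, 10 and 11, which left 1 lower. Ependymal genes had 2 of 5 called higher, 1 lower and 2 not called, and *DNAH9*, a motor protein of cilia, was the member without overlap (45.2, 53.4 and 78.2 against 9.55, 12.2 and 17.2 CPM, log2FC 2.13 ± 0.10, FDR 2.18e-09). Of 7 genes of striatal projection neurons 2 were called higher and 2 lower, with a median log2FC of -0.01 and sums of 163 to 235 CPM in the thalamus against 209 to 269 CPM in the profiles. Without any one of Rhesus 2, 3, 4, 6, 8 and 10 only 1 of them was called higher, since either *RGS9* or *DRD2* lost its call. In the list of reticular nucleus and other GABA neuron genes, 3 of 9 were called higher, 2 lower and 4 not called (median log2FC -0.67). The list summed to 833 to 1442 CPM in the thalamus and 1157 to 1334 CPM in the profiles. Called lower were *GAD1* (log2FC -1.13) and *SST*, both described above. *GATA3*, a factor of GABA neurons of the brainstem and diencephalon, lay at 3.94, 6.67 and 10.7 against 0.00899, 0.0272 and 0.159 CPM (log2FC 7.58 ± 0.42, FDR 2.87e-08), and *SPP1*, osteopontin, at 382, 552 and 621 against 143, 177 and 203 CPM (log2FC 1.53 ± 0.10, FDR 5.59e-08), both without overlap. What these neighbours contributed to other genes was not tested.

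The hypothalamus and the corpus callosum were set beside the neocortex for the same genes, in tests that share the 8 thalamus samples, so that they are no separate evidence. Against the hypothalamus 821 of 15457 genes (5.31%) were called higher in the thalamus and 1085 (7.02%) lower. The hypothalamus sample of Rhesus 6 held cortical transcripts (*SLC17A7* at 469 CPM and *TBR1* at 45.8 CPM, against at most 5.12 and 5.64 CPM in the other 7). Without that animal 902 genes were called higher and 1153 lower of 15506. The log2FC against the hypothalamus that follow are given without Rhesus 6, while the hypothalamic medians cover all 8 samples. *SHOX2* had a median of 1.56 CPM in the hypothalamus (log2FC 7.37) and *TCF7L2* one of 7.46 CPM (5.22). *CHRNA2* (median 2.14 CPM, log2FC 6.90), *CASQ2* (0.167 CPM, 8.64) and *NTNG1* (46 CPM, 4.06) were higher in the thalamus than in the hypothalamus too. *TRH* did not share this pattern, with a hypothalamic median of 102 CPM (log2FC -0.47, FDR 0.0105). *SLC17A7* had a hypothalamic median of 2.49 CPM (log2FC -0.62, FDR 0.0467). *MBP* had a median of 4585 CPM in the hypothalamus (log2FC 0.61, FDR 0.166) and 50806 CPM in the corpus callosum (log2FC -2.55). *RBFOX3*, low in the thalamus against the neocortex, had 53.9 CPM in the hypothalamus (log2FC -0.89) and 8.14 CPM in the corpus callosum (1.81).

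Over the 21 region groups, which leave out the midbrain, the thalamus had the highest mean of *SHOX2*, *GBX2*, *LHX9*, *OTX2*, *NTS*, *CASQ2*, *SLITRK6*, *CHRNA2*, *CHRNA4*, *NTNG1*, *PCP4*, *HCN4*, *CACNA1G* and *SLC17A6*. *SLC17A6* reached 840.3 ± 230.1 CPM (SD, n = 8) in the thalamus, 437 ± 99.5 in the pons and 269 ± 152 in the medulla oblongata. The orders of *CRH*, *TRH* and *GATA3* were different. *CRH* had means of 347 ± 551 CPM in the medulla oblongata and 340.3 ± 48.3 CPM in the thalamus, a difference that was not tested. *TRH* stood at 95 ± 33.3 CPM in the hypothalamus and 84.6 ± 31.7 CPM in the thalamus over all 8 animals (paired log2FC -0.19, FDR 0.614). Without Rhesus 6 the log2FC was -0.47 (FDR 0.0105), so the thalamus was lower by less than 2-fold. *GATA3* had higher means in the ventral tegmental area (9.93 ± 3.31 CPM) and the pituitary (8.64 ± 2.47 CPM) than in the thalamus (6.92 ± 2.34 CPM), differences that were not tested.

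**Figure D4:**
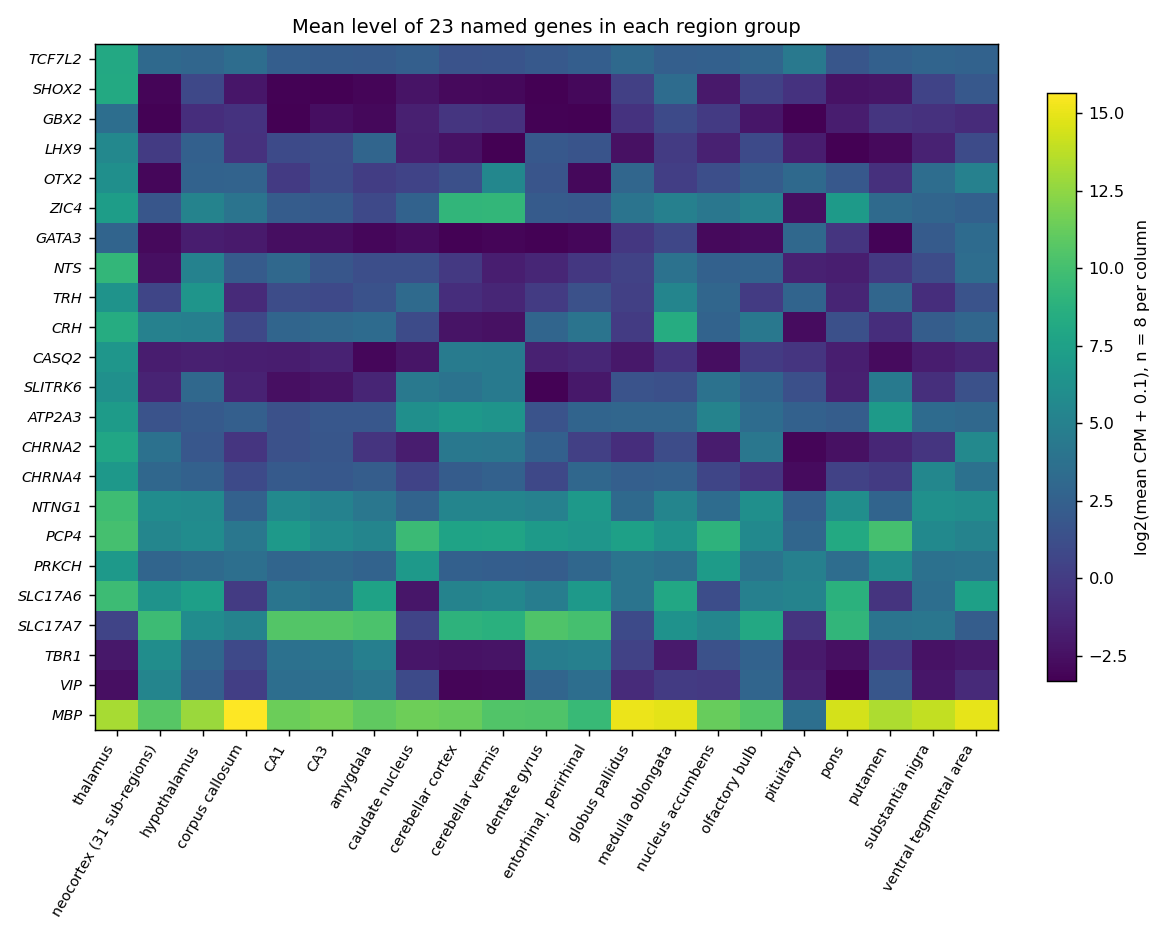
Colours give the log2 of the mean CPM + 0.1 of 23 genes (rows) in the 21 region groups of the count table (columns), n = 8 animals per column. The thalamus column is bright for *TCF7L2*, *SHOX2*, *NTS*, *CHRNA2* and *NTNG1*, where the neocortex column is darker, and dark for *SLC17A7*, *TBR1* and *VIP*.

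The difference between thalamus and neocortex was tested for dependence on the age stage. Of 15427 genes, 3 (0.0194%) passed, and 1336 had an unadjusted p under 0.05. *CALB1*, calbindin, a calcium buffer of relay neurons that project widely to the cortex, had 95.4 to 145 CPM in the thalamus of the 4 young animals and 224 to 305 CPM in that of the 4 mid-aged. In the profiles it had 139 to 205 CPM in the young and 85.7 to 123 CPM in the mid-aged, so the thalamus exceeded the neocortex in each mid-aged animal but in only 1 of 4 young. The difference of the log2FC, mid-aged minus young, was 1.61 ± 0.17 (FDR 0.0195). For *CHRNA4* the young averaged 93.8 ± 22.4 CPM (SD, n = 4) in the thalamus and 10.4 ± 1.58 CPM in the profiles, and the mid-aged 126 ± 20.5 and 5.78 ± 1.82 CPM, a difference of 1.32 ± 0.14 (FDR 0.0195). *PTER*, a phosphotriesterase-related enzyme, averaged 33.3 ± 14.4 CPM in the thalamus of the young and 86.1 ± 27.7 CPM in that of the mid-aged, with 223 ± 31 and 206 ± 33 CPM in the profiles, a difference of 1.53 ± 0.19 (FDR 0.0493).

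These calls depended on single animals: none remained without Rhesus 2, 3, 6, 7 or 11, and there were 7 without Rhesus 4, 13 without Rhesus 8 and 4 without Rhesus 10. Since 3 of the 4 young thalamus libraries are those that stood apart, age stage and library cannot be told apart. For sex, 1 of 15427 genes (0.00648%) passed, with 750 at an unadjusted p under 0.05. It is a gene without a symbol, ENSMMUG00000041468, with 3.56 to 6.82 CPM in the thalamus of males and 0 to 0.137 CPM in that of females, against profile means of 4.08 ± 0.438 and 1.75 ± 0.49 CPM (difference, female minus male, -5.89 ± 0.56, FDR 0.0125). That call was lost without Rhesus 2, 3, 6, 10 or 11.

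**Figure D5:**
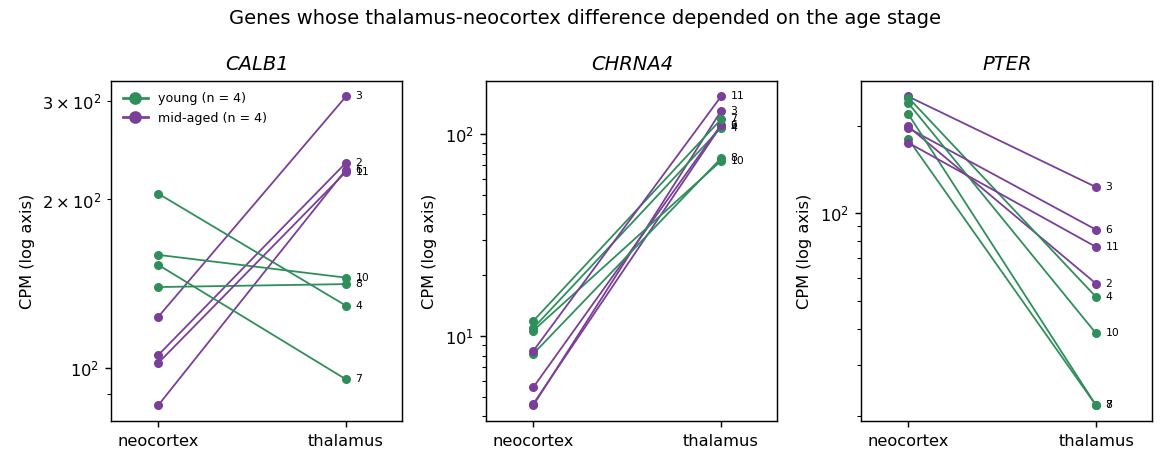
Lines join the neocortex profile and the thalamus sample of each animal (numbered) for the 3 genes whose difference depended on age stage, in CPM on a log axis, green for 4 young and purple for 4 mid-aged animals. The purple lines of *CALB1* all rise, from at most 123 CPM in the neocortex to at least 224 CPM in the thalamus, while 3 of the 4 green lines fall.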

How the data were processed

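RNA after ribosomal RNA removal was sequenced per region and animal. The authors checked reads with FastQC 0.11.4, trimmed those of poor samples with Trim Galore 0.4.4, aligned them with HISAT2 2.0.5 to Mmul 8.0.1 with the Ensembl 91 annotation, and counted them per gene with HTSeq 0.6.1, and the deposited values are raw counts with 1 column per sample. Libraries were made with a directional kit, and how the counting treated strand and overlaps is not given in the sources used here, so overlapping and antisense genes, and close copies such as *IRX*, *ZIC* or *GABRR* family members, are uncertain. Of 30807 genes, 17572 have a symbol. The 33 chromatin samples were not used, and 8 midbrain samples have no column in the table used. Promoter or protein sequences were not used here.

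From the counts, the 31 cortical samples of each animal were summed. Genes with at least 0.5 CPM in at least 8 of 16 profiles were tested with edgeR 4.0.16 (R 4.3.3) by its quasi-likelihood test, with TMM factors, the animal as a block and Benjamini-Hochberg adjustment. SE is the log2FC divided by the square root of F. Age stage and sex were tested as interaction terms. The same number marks the same animal, so samples were paired by animal, and the correlation of deviations between thalamus and neocortex was 0.323 to 0.686 in the 8 animals. No 2 thalamus samples held identical values. Each group has 1 sample per animal, so p-values measure the spread between animals. Totals of 9408110 to 14435755 counts per thalamus sample limit precision for genes below about 1 CPM. The test was tried on simulated counts first.

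The 28 gene lists (465 entries, 392 with an identifier in the table, 364 tested) and the naming rule were chosen with earlier results of these data known. Each list names members of its own and up to 4 called members with the largest log2FC per direction. Beyond the lists, the 15 genes with the largest log2FC in each direction were named (genes with a symbol that averaged 5 CPM or more in either tissue and differed in 1 direction in 8 of 8 animals), with *TCF7L2*, *SLC17A6*, *SLC17A7*, *GAD1*, *GAD2* and *MBP*. Values of some genes are not reported here, although they count in the totals of their lists. Alternatives were DESeq2 1.42.0, 2 other scalings, the mean in place of the cortical sum, a cortex without insula, hippocampal and cingular gyri, other filters and thresholds, no block, and each animal left out.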

Additional observations from a re-analysis of the deposited data

Results flagged for a closer look

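For 136 named genes, both tissues were screened for a sample that stands apart from the other 7 by Dixon's test, which chance alone flags in about 1 of 20 groups. A sample stood apart in 29 of 272 gene and tissue pairs, 17 in the thalamus and 12 in the neocortex profiles.

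In the thalamus, 8 of the 17 were values of Rhesus 8. The vesicular transporter *SLC17A6* (343 CPM), the factor *LHX9* (24.3 CPM) and the RNA-binding protein *ELAVL4* (81.8 CPM) were low there, while *MBP* (16710 CPM), the gap junction gene *GJB1* (80.9 CPM), *CRH* (450.4 CPM), *NEUROD6* (1.55 CPM) and *HTR1E* (1.93 CPM) were high. In Rhesus 3 the 3 genes are all cortical ones and all high: *SLC17A7* (2.98 CPM), *TESPA1* (0.532 CPM) and *NPTX1* (6.07 CPM). Rhesus 6 was high for *CCK* (21.96 CPM) and *MEPE* (0.480 CPM), Rhesus 4 for *NPY* (1.10 CPM), and Rhesus 2 was low for *LRRC4* (23.6 CPM). The flags for *HTR3A* in Rhesus 2 (0.0839 CPM) and *FFAR4* in Rhesus 10 (0.0881 CPM) rest on 1 count each.

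In the neocortex profiles Rhesus 4 was high for *NRGN* (2278 CPM) and *GAP43* (503.9 CPM) and low for *KCNIP2* (74.5 CPM). Rhesus 11 was low for *PCP4* (25.8 CPM) and high for *KCNN3* (15.9 CPM) and *GATA3* (0.159 CPM). Rhesus 8 was high for *OTX2* (0.0884 CPM), *IRX2* (0.0347 CPM) and *IL12B* (0.25 CPM), genes that are nearly silent in the cortex. The remaining flags, all high values, were *CAMK1G* in Rhesus 3 (139 CPM), *DRD4* in Rhesus 10 (0.442 CPM) and *TRH* in Rhesus 6 (5.32 CPM).

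The difference between thalamus and neocortex depended on age stage for *CALB1* (1.61, mid-aged minus young on the log2 scale), *CHRNA4* (1.32) and *PTER* (1.53), and on sex for ENSMMUG00000041468 (-5.89, female minus male). All 4 passed edgeR's interaction test at FDR < 0.05, and the age calls cannot be told apart from the 3 young libraries that stood apart.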

How the results depend on the processing

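Of 214 called genes that are named or listed, 195 kept direction and call under every alternative, and over 3706 pairs of gene and alternative 65 lost the call, 1 gained it and 3 changed sign. The 3 are *PVALB*, with log2FC of -0.058 for a cortex without insula, hippocampal and cingular gyri, and -0.11 to 0.27 with single animals left out. DESeq2 called 1344 genes higher and 1477 lower, DESeq2 size factors 1331 and 1469, library totals 1335 and 1447, and the cortical mean 1408 and 1406. With single animals left out the counts were 1263 to 1300 and 1503 to 1556. Leaving out Rhesus 4, 8 and 10 together was chosen after seeing the data. Without the animal block the counts were 1300 and 1485, and the block moved no count over all genes by over 1.5 times, while astrocyte genes called lower went from 2 to 1 without it (*SLC1A3*). With no fold threshold 4533 genes were higher and 5662 lower (10195 in all), and above 4-fold 365 and 642 (1007). Low-count filters mattered: filterByExpr gave 1858 and 2299, and no filter 1878 and 2263, because more genes were tested. By age stage DESeq2 called 24 genes, filterByExpr 8, and leaving out single animals 0 to 13. By sex the counts were 8, 2 and 0 to 3. The cause was not tested.

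The thalamus samples hold far fewer counts than the cortical sums, so genes under 1 CPM in the thalamus rest on few reads, and their log2FC are less certain than those of abundant genes. The comparison averages the cortex over 31 sub-regions and the thalamus over 1 block, whose place within the thalamus is not known here.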
